A study of Mus musculus with 6 samples.

Results

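Oas1a, Oas2, Oas3, Oasl1, Oasl2, Ifit1, Ifit2 and Ifit3, the oligoadenylate synthetase (OAS) and IFIT antiviral effector genes, were examined in cultured mouse microglia, the resident macrophages of the brain. Members were taken by gene symbol. These 8 genes of the 19938 with a single-gene probe set on the array each had 1 such probe set, and a further probe set that names a member among several symbols was not used. There were 3 arrays from fosB-null microglia, homozygous for the fosBG null allele of Fosb on a C57BL/6J background, and 3 from wild-type C57BL/6J microglia. Fosb codes for FosB, which pairs with JUN proteins to form the transcription factor AP-1. Cells came from the cerebral cortex of pups aged 2 days, were collected after 10 days in culture, replated and harvested 24 h later, with no other treatment named in the labels. No source used here gives the sex or the number of pups per culture, or says that the wild-type cultures came from littermates of the mutants. Arrays are numbered 1 to 3 in each group.

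OAS and IFIT proteins are made when type I interferon binds its receptor and factors that include Stat2 and Irf9 move to interferon-stimulated response elements (ISREs) in DNA. OAS enzymes bind double-stranded RNA and make short oligoadenylates, which act as a signal of viral infection inside the cell. IFIT proteins bind viral RNA or translation factors and hold back viral protein synthesis. Microglia respond strongly to interferon during infection of the brain, and some of these genes are transcribed at a basal level without infection.

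The promoters are shown because the members are known as a group driven through ISREs and because the mutated gene encodes an AP-1 factor. RefSeq promoter windows (build GRCm38.p6, 250 bases before to 50 after a transcript start) were matched by symbol for 7 of the 8 members, with 2 windows for Ifit2. Both strands were searched for the ISRE core, which is GAAA, any 2 bases and GAAA again, and for the AP-1 motif TGANTCA, in which N is any base, and capitals below mark the matches. The 250 bases before the start are printed 5′ to 3′ on the gene's strand for the 4 members with a match and for Oasl2, which is among the members with the lowest differences and has no match. Ifit1 and Ifit3 lie on chromosome 19, at chr19:34640639-34640888 and chr19:34583279-34583528 on the plus strand. Oas3 and Oas1a lie on the minus strand of chromosome 5, at chr5:120777660-120777909 and chr5:120907526-120907775, and Oasl2 on its plus strand at chr5:114896684-114896933. All of these are outside chromosome 7, which carries Fosb.
Ifit1: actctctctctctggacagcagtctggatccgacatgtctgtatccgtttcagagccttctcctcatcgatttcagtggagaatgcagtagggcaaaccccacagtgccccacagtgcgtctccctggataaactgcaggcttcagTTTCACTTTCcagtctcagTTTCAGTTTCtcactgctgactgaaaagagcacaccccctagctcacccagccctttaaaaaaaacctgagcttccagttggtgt
Ifit3: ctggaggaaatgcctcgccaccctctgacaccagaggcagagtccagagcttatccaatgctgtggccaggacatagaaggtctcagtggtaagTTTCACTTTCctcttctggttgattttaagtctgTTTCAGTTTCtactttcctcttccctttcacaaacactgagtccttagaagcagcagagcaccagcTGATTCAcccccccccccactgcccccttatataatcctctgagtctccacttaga
Oas3: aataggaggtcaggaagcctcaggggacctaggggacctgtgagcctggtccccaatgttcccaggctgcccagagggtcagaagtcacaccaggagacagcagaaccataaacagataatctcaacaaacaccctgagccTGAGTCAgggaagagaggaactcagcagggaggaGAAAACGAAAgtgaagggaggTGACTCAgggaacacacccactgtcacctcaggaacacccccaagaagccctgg
Oas1a: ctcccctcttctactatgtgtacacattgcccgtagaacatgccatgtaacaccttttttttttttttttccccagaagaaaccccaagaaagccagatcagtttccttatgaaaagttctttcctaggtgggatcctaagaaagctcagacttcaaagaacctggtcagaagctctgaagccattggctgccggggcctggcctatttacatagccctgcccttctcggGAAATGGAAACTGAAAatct
Oasl2: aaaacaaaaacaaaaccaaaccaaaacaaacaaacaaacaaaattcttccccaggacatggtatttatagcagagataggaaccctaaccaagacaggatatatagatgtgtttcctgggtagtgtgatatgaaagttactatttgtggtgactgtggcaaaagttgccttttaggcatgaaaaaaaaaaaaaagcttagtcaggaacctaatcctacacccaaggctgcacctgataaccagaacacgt

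Ifit1 and Ifit3 share the same pair of ISRE core matches, TTTCACTTTC followed by TTTCAGTTTC, both on the opposite strand. They begin 104 and 85 bases before the start in Ifit1, and 156 and 122 bases before it in Ifit3. Oas3 has GAAAACGAAA beginning 75 bases before the start, and Oas1a has GAAATGGAAA and GAAACTGAAA, which overlap, beginning 20 and 14 bases before it. Oas3 also has the AP-1 motif at 109 and 54 bases before the start, as TGAGTCA and TGACTCA, and Ifit3 has it at 56 bases, as TGATTCA. No ISRE core overlaps an AP-1 motif in these windows. The ISRE core was in 4 of the 8 member windows, against 3.44% of all 32851 windows, and the AP-1 motif was in 2 of 8, against 7.81%. In 48 windows of 41 other genes of the interferon pathway the shares were 37.5% for the ISRE core and 12.5% for the AP-1 motif. A high share with the ISRE core is thus not particular to the members. A match is a description of the letters and not a site of binding, and none was found in the windows of Oasl1, Oasl2 or Ifit2.

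**Figure D1:**
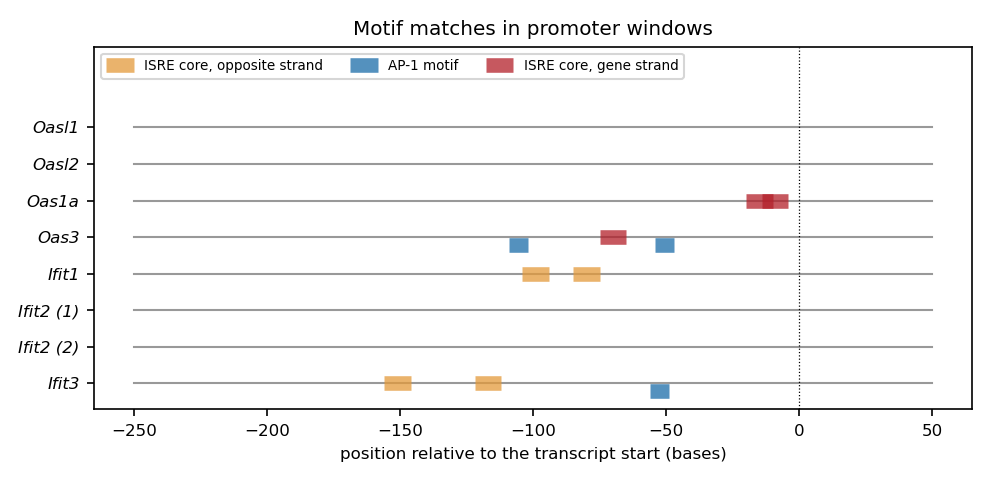
Motif matches in the RefSeq promoter windows of 7 members, by position relative to the transcript start in bases. Each grey line is 1 window of 300 bases, red and orange bars are ISRE cores on the gene's strand and the opposite strand, and blue bars are AP-1 motifs. Ifit1 and Ifit3 each carry 2 ISRE cores on the opposite strand, and the windows of Oasl1, Oasl2 and Ifit2 carry no match.

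The arrays are paired in a way that touches every value below. Between same-numbered arrays 54.7% to 62.3% of tested probe sets had identical deposited values, and 27.8% were tied in all 3 pairs. How these ties arose is not recorded in the labels, and a tie is not a measurement of equality. The Fosb probe set had 7.82, 8.05 and 7.83 in fosB-null arrays 1 to 3, against 8.01, 8.14 and 7.92 in wild-type arrays 1 to 3. It is no check of the labels, because it is unknown here whether the mutation removes the sequence it reads. Of 9 measured microglia and macrophage markers, 8 had a higher mean in fosB-null arrays and 1, Trem2, a lower one, with differences from 0.09 for Aif1 to -0.01 for Trem2. Their means ran from 8.86 to 13.61 in fosB-null and from 8.78 to 13.62 in wild-type arrays. All 6 astrocyte markers were tied in all pairs, with means from 6.47 to 8.27. Of 5 markers of the oligodendrocyte lineage 4 had a lower mean in fosB-null arrays, by 0.21 for Mbp. Mbp read 9.69 in fosB-null and 9.89 in wild-type arrays, within the range of the microglia markers. By group means 3 of 6 neuron markers were lower and 2 higher, and 2 of 4 endothelial markers were lower and 1 higher. For fibroblasts and mural cells 0 of 6 were lower and 3 higher, and for blood leukocytes 0 of 4 and 3. Over all tested probe sets 41.3% had a lower mean in fosB-null arrays. The part of the marked cell types in the results was not tested.

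Values below are deposited log2 signals, on which a difference of -1 is a halving, and differences are fosB-null minus wild-type. No member passed the threshold, an adjusted p under 0.05 in limma, a linear model with moderated variances fitted across all 23410 tested probe sets. That threshold was passed by 0.00427% of all tested probe sets. In the same fit 2 of the 8 members, Ifit1 and Oasl2, had an unadjusted p under 0.05 with a lower signal in fosB-null microglia, against 0.453% of all tested probe sets. This count was 1, Ifit1 alone, without fosB-null replicate 3, wild-type replicate 1 or wild-type replicate 2, and 3, with Ifit3, without fosB-null replicate 2 or wild-type replicate 3. With the replicate number as a fixed block the count was 1, Oasl2, beside 541 of the 23410 tested probe sets at such a p in either direction. With that number as a random block it was 5, beside 2259 of all tested probe sets. A test without moderation gave 0, beside 104. The fit without a block had 169 in either direction. When replicate number entered as a random block, Oasl2 alone of the members passed (limma adjusted p = 0.00926), where 0.145% of tested probe sets passed with a lower signal. The random block uses a single correlation shared by all probe sets, tied ones included. With the replicate number as a fixed block 0 members passed, as did 0 of all tested probe sets. When the moderation of the fixed block was drawn only from probe sets that differ in some pair, 0 members passed. Oasl2 then had an adjusted p of 0.525 (limma). In bulk RNA a lower signal from fewer cells of a type and one from less RNA per cell cannot be told apart.

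By group means 7 of 8 members were lower in fosB-null microglia and 1 member was tied. Of all tested probe sets 41.3% were lower and 27.8% were tied in all 3 pairs, so that these could not be lower. The signal was lower in all 3 pairs for 4 members, Oas1a, Oasl2, Ifit1 and Ifit3, and for 5.57% of tested probe sets. The median difference of the 8 members was -0.20, and over all tested probe sets it was 0. A difference of -0.5 or below was found for 3 members, Ifit1, Ifit3 and Oasl2, and for 0.209% of tested probe sets. None of these counts is an independent test, because the members were named with earlier results of these data known and share samples and a pathway.

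**Figure D2:**
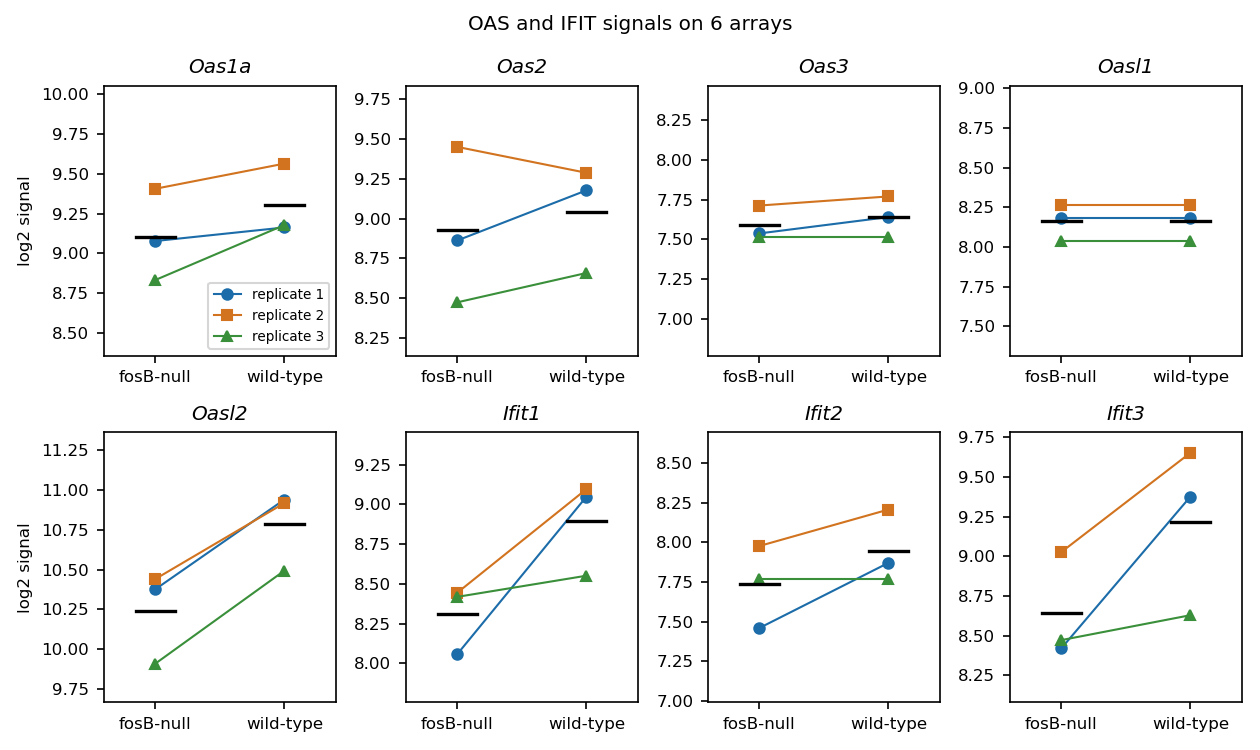
Log2 signal of each member on the 6 arrays, with fosB-null on the left and wild-type on the right of each panel, and every vertical axis spanning the same width. Coloured lines join arrays with the same replicate number, and black bars are group means. The lines of Oasl2 run in parallel, those of Ifit1 and Ifit3 are steep in pairs 1 and 2 and shallow in pair 3, and those of Oasl1 are flat.

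Ifit1 binds viral RNA whose cap lacks the methylation of host messenger RNA. Its signal (probe set 10462623) was 8.06, 8.45 and 8.42 in fosB-null arrays 1 to 3, against 9.05, 9.10 and 8.55 in wild-type arrays 1 to 3. All fosB-null values lay below all wild-type values, which holds for 0.709% of tested probe sets, although wild-type array 3 lay only 0.13 above its fosB-null partner. The means were 8.31 ± 0.22 in fosB-null and 8.90 ± 0.30 in wild-type arrays (SD, n = 3 each). The difference was -0.59 ± 0.17 (standard error), a signal 1.51-fold lower (limma unadjusted p = 0.0121, adjusted p = 1). By pair it was -0.99, -0.65 and -0.13. With the replicate number as a fixed block the standard error was 0.23 and the unadjusted p 0.105 (limma).

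Ifit3 forms complexes with other IFIT proteins, and in human cells it stabilises IFIT1. Its signal (probe set 10462618) was 8.42, 9.03 and 8.47 in fosB-null arrays, against 9.38, 9.65 and 8.63 in wild-type arrays. Here the groups overlapped, since fosB-null array 2 lay above wild-type array 3. The means were 8.64 ± 0.34 in fosB-null and 9.22 ± 0.53 in wild-type arrays (SD, n = 3 each), and they differed by -0.58 ± 0.28 (standard error; limma unadjusted p = 0.0814, adjusted p = 1). The pairs differed by -0.95, -0.62 and -0.16. The wild-type arrays alone spanned 1.02, more than the difference between the groups, which was -0.36 without wild-type replicate 2 and -0.87 without wild-type replicate 3. Ifit3 has a close copy, Ifit3b, whose probe set read 5.24 ± 0.37 in fosB-null and 5.44 ± 0.55 in wild-type arrays (SD, n = 3 each). How far the 2 probe sets read each other's transcripts is not known here.

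Ifit2, which in mice restricts viruses that infect neurons, followed with a smaller difference. Its signal (probe set 10462613) was 7.46, 7.98 and 7.77 in fosB-null arrays, against 7.87, 8.21 and 7.77 in wild-type arrays. Pair 3 was exactly tied, and the pairs differed by -0.41, -0.23 and 0. The difference of the means was -0.21 with a standard error of 0.16 (limma unadjusted p = 0.237, adjusted p = 1). Leaving out fosB-null replicate 1 gave -0.08, and leaving out fosB-null replicate 2 gave -0.33. The 3 IFIT members had the same order of pairs, with a mean difference over the family of -0.78 in pair 1, -0.50 in pair 2 and -0.10 in pair 3.

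Oasl2 encodes an OAS-like protein of the mouse that has ubiquitin-like repeats and keeps synthetase activity. Its signal (probe set 10524621) was 10.38, 10.44 and 9.91 in fosB-null arrays, against 10.94, 10.92 and 10.49 in wild-type arrays. All fosB-null values lay below all wild-type values, as in 0.709% of tested probe sets, and array 3 was the lowest of each group. The means were 10.24 ± 0.29 in fosB-null and 10.78 ± 0.25 in wild-type arrays (SD, n = 3 each). The difference was -0.54 ± 0.18 (standard error), a signal 1.46-fold lower (limma unadjusted p = 0.0203, adjusted p = 1). By pair it was -0.56, -0.48 and -0.59, the closest agreement among pairs of the 3 members with a difference of -0.5 or below. With the fixed replicate block the standard error was 0.03 and the unadjusted p 0.00142, with an adjusted p of 0.674 (limma).

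Oasl1, the next protein-coding gene after Oasl2 on chromosome 5 in RefSeq, encodes an OAS-like protein without synthetase activity that in mice blocks translation of Irf7. Its signal (probe set 10524631) was 8.19, 8.27 and 8.04 in fosB-null arrays, and each wild-type array held exactly the value of its partner. The difference was 0, with a 95% interval of -0.22 to 0.22 from the moderated fit, and the ties in all pairs mean that this is no measurement of equal expression. Oasl1 is thus among the 27.8% of tested probe sets tied throughout, and Oasl2 is tied in no pair.

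The 3 OAS genes proper had smaller differences, and all overlapped between groups. Oas1a, which encodes a synthetase, read 9.08, 9.41 and 8.83 in fosB-null arrays, against 9.16, 9.56 and 9.18 in wild-type arrays (probe set 10533256). It was lower in every pair, by -0.09, -0.16 and -0.35, with a difference of -0.20 and a standard error of 0.17 (limma unadjusted p = 0.295, adjusted p = 1). Leaving out fosB-null replicate 3 gave -0.06, and leaving out fosB-null replicate 2 gave -0.35. In this member pair 3 had the largest difference, unlike in the IFIT genes.

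Oas2, a larger synthetase built from repeated units, read 8.86, 9.45 and 8.47 in fosB-null arrays, against 9.18, 9.29 and 8.66 in wild-type arrays (probe set 10533198). Pair 2 was higher in fosB-null cells, by 0.16, and pairs 1 and 3 differed by -0.32 and -0.18. The difference of -0.11 had a standard error of 0.27 (limma unadjusted p = 0.691, adjusted p = 1), and its sign turned to 0.12 without fosB-null replicate 3 and to 0.01 without wild-type replicate 2. Oas3, the longest of the synthetases, read 7.54, 7.71 and 7.52 in fosB-null arrays, against 7.64, 7.77 and 7.52 in wild-type arrays (probe set 10533213). Its pair 3 was tied, the difference was -0.05 with a standard error of 0.10 (limma unadjusted p = 0.593, adjusted p = 1), and without wild-type replicate 2 it was 0.01.

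**Figure D3:**
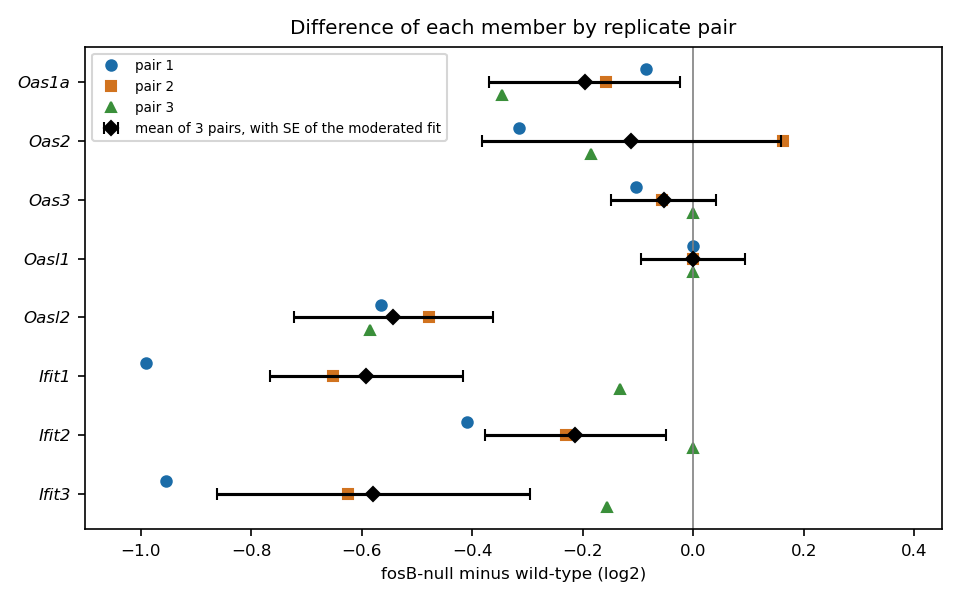
Difference of fosB-null minus wild-type in log2 signal for each member. Coloured points are the 3 replicate pairs, and black diamonds are means. Bars are the standard error from the moderated fit without a block, and not the spread of the pairs. Ifit1 and Ifit3 spread from near -1 in pair 1 to -0.13 and -0.16 in pair 3, while the 3 pairs of Oasl2 lie between -0.59 and -0.48.

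The arrays of a group also differed in these genes together. With each member centred on its own mean over the 6 arrays, the average of the 8 members was -0.23, 0.11 and -0.30 in fosB-null arrays 1 to 3, against 0.19, 0.36 and -0.13 in wild-type arrays 1 to 3. Array 2 was the highest and array 3 the lowest of each group, so that fosB-null array 2 lay above wild-type array 3. Over the 6 arrays Ifit1 and Ifit3 correlated at 0.90, Oas2 and Oas3 at 0.91, and Ifit1 and Oas2 at 0.45 (Pearson's r, a description over 6 paired arrays). The values did not divide by family, since Oas3 and Ifit3 correlated at 0.89 and Oasl1 and Oasl2 at 0.60. Same-numbered arrays share their deviations, so these arrays are not independent points.

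**Figure D4:**
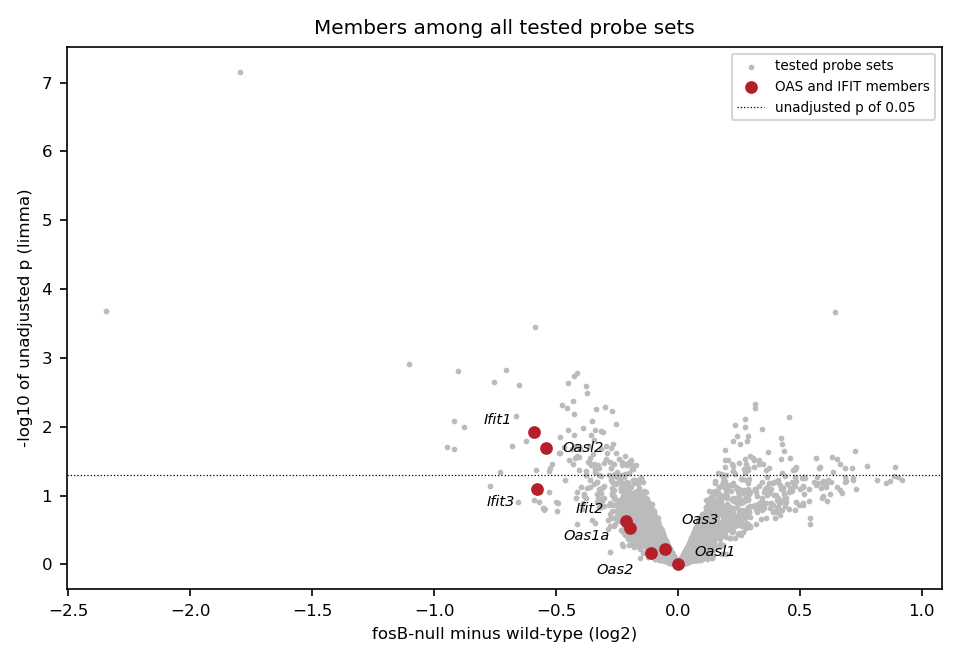
Difference in log2 signal, fosB-null minus wild-type, against -log10 of the unadjusted limma p for all tested probe sets (grey) and the 8 members (red). The dotted line marks an unadjusted p of 0.05. Ifit1 and Oasl2 lie above the line at -0.59 and -0.54, Ifit3 lies just below it at -0.58, and the other members lie at smaller differences.

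Genes upstream of the members and other genes of the interferon response were read from the same fit. Of 49 measured genes in this list, 0 passed the adjusted threshold and 3 had an unadjusted p under 0.05 in limma, all lower in fosB-null microglia. By group means 37 were lower, 6 were higher and 6 were at a difference of 0, with a median of -0.05. Of all tested probe sets 41.3% were lower by group means and 27.8% were at 0. An unadjusted p under 0.05 in limma with a lower signal was found for 0.453%. These shares also stand beside the counts by role below. With the random replicate block 1 of the 49, Irf7, passed, where 0.145% of tested probe sets passed with a lower signal. Isg15, a ubiquitin-like modifier, has only a probe set that also names another gene and was not analysed here.

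The interferons themselves gave no difference to read: Ifnb1, Ifna4 and Ifng were tied in all pairs, with group means of 6.51, 5.91 and 7.22. Among the 4 receptor genes 3 were lower and 1 higher by group means, with Ifngr2 at -0.08 and Ifnar2 at -0.03. Of 8 signalling genes 7 were lower by group means. Irf7, the factor that amplifies interferon production, had 8.86 in fosB-null and 9.19 in wild-type arrays, a difference of -0.33 with -0.37, -0.36 and -0.25 in the pairs (limma unadjusted p = 0.0358, adjusted p = 1). Its adjusted p with the random replicate block was 0.0286 (limma). It was 0.948 with the fixed block moderated only from probe sets that differ in some pair (limma). Stat2, a subunit of the factor that binds ISREs, differed by -0.11.

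Of 5 genes for the sensing of viral RNA and its signal 4 were lower by group means. Ddx58, which encodes RIG-I, was at -0.19. The endosomal receptor gene Tlr7, at 0.11, was the 1 with a higher mean. Of 3 feedback inhibitors all were lower by group means. Usp18, which shuts off the interferon receptor, differed by -0.31, with -0.46, -0.37 and -0.10 in the pairs, and Socs1 by -0.09. Neither passed an unadjusted p of 0.05 in the limma fit without a block. With the random replicate block the unadjusted p was 0.00389 for Usp18 and 0.0382 for Socs1, with adjusted p of 0.223 and 0.474 (limma). In that fit 2259 of all tested probe sets had an unadjusted p under 0.05.

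Among 18 other interferon-stimulated genes 16 were lower and 2 higher by group means, with a median of -0.15. Rtp4, a receptor transporter gene induced by interferon, had 9.87 in fosB-null and 10.56 in wild-type arrays, a difference of -0.68 with -0.49, -0.54 and -1.02 in the pairs (limma unadjusted p = 0.0189, adjusted p = 1). Dhx58, which encodes the RIG-I relative LGP2, had 9.28 in fosB-null and 9.59 in wild-type arrays, a difference of -0.31 with -0.23, -0.24 and -0.45 in the pairs (limma unadjusted p = 0.0118, adjusted p = 1). In neither gene did the groups overlap, and in both pair 3 had the largest difference. All fosB-null values lay below all wild-type values in 0.709% of tested probe sets. Of 8 further OAS and IFIT family genes 4 were lower by group means, 1 was higher and 3 were tied throughout, with Ifit3b at -0.20 and Oas1b at -0.04. Several of these were dim, which limits the counts. Only 8.7% of all probe sets were dimmer than Ifit3b, 11.6% than Oas1e, 7.8% than Oas1h and 7.3% than Ifit1bl2. The pairs of Ifit3b differed by 0, -0.53 and -0.08.

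**Figure D5:**
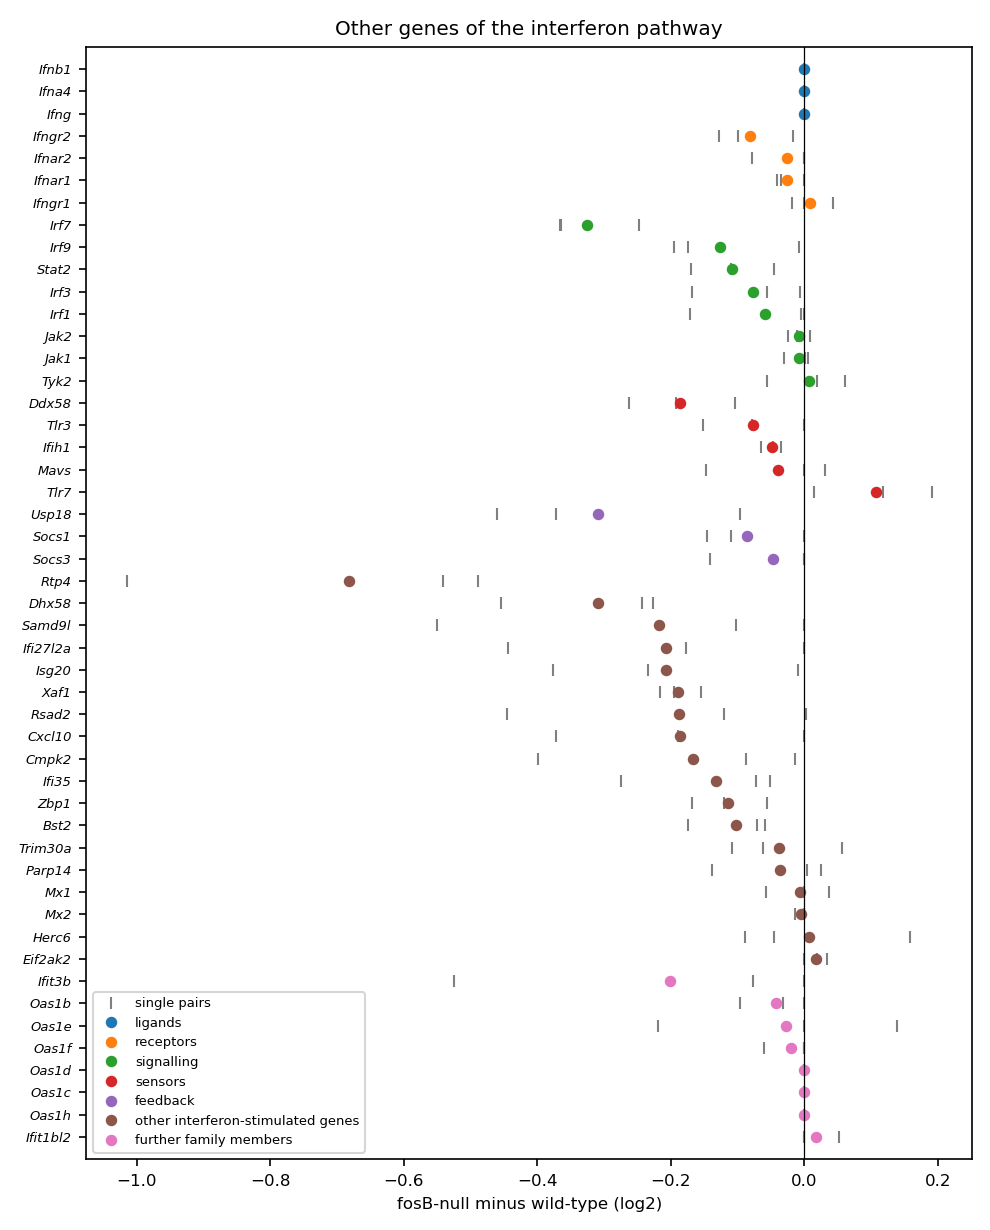
Difference in log2 signal, fosB-null minus wild-type, for 49 other genes of the interferon pathway, grouped by role. Coloured points are means and grey ticks are the 3 replicate pairs. The 3 interferon genes lie at 0 in every pair, while Rtp4 at -0.68, Irf7 at -0.33, Usp18 and Dhx58 at -0.31 lie lowest.

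The genes whose pattern over the 6 arrays was most like the average of the members were ranked among 7034 named genes that varied and were not tied throughout. The first 5 were Smpdl3a, Os9, Nif3l1, Tmem41a and Cnih4, with Pearson's r of 0.992, 0.986, 0.973, 0.973 and 0.971. Their differences between the groups were -0.12, -0.10, -0.09, -0.23 and -0.31. An r of 0.9 or above was reached by 181 of the 7034 genes. Of the pathway genes above, Usp18 and Irf7 had an r of 0.958 and 0.953, and Rtp4 and Dhx58 had 0.844 and 0.55, values looked up after the ranking was seen. Fosb was in rank 10 with 0.965, and was likewise looked up afterwards.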

How the data were processed

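RNA from 6 microglial cultures was amplified from 100 ng into biotinylated DNA and hybridised to Affymetrix arrays, per the labels' protocols. The authors deposited log2 signals, 1 per probe set and array. The submitters' processing notes name Affymetrix Expression Console, and its version, summary method and normalization are not stated there. That the scale is log2 was judged from the values (1.73 to 14.61, array medians 7.76 to 7.92). No column was left unused.

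The platform annotation listed 1 symbol for 21789 of 35557 probe sets, several for 1621 and none for 12147, and the 23410 with a symbol were tested. Symbols were updated through a RefSeq table (GRCm38.p6), which held 21698. limma 3.58.1 in R 4.3.3 (lmFit, eBayes, two-sided) compared groups without a block or filter, with Benjamini-Hochberg adjustment over all tested probe sets. The fit was tried on simulated independent arrays. These lacked the pairing and ties of the deposited values, so the trial cannot show how the fit treats them. Members and lists were chosen with earlier results of these data known. Named genes are the members, Fosb, the 2 pathway genes per role with the lowest unadjusted p, and the 5 most correlated genes (SD of at least 0.1), and others are marked as chosen afterwards.

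Same-numbered arrays shared the identical values described above, whereas no pair of differently numbered arrays shared more than 3. Same-numbered arrays also deviated together from their group means (r = 0.62, 0.56 and 0.58). That r is over all probe sets, tied ones included, and so is not separate from the ties. The numbers were taken to pair the samples on these grounds, without a statement in the labels. The p-values measure the spread between these arrays only, and the number of arrays limits the precision. Those of the fit without a block count variation shared by same-numbered arrays as error. They and their standard errors thus do not measure the spread of the paired differences. Alternatives were fixed and random replicate blocks, and a fixed block moderated only from probe sets that differ in some pair. The others were other scalings, a filter, array weights, an intensity trend, no moderation, other tested sets and left-out arrays.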

Additional observations from a re-analysis of the deposited data

How the results depend on the processing

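The median difference of the 8 members (-0.20) stayed below 0 under every alternative run on it, from -0.36 without fosB-null replicate 2 to -0.07 without wild-type replicate 2, as single arrays were left out. No member was called by limma at an adjusted p under 0.05 except Oasl2 with the random replicate block, which gave 1 member called on the deposited values (adjusted p = 0.00926) and 1 after quantile normalization, an alternative added after the data were seen. That block called 1 pathway gene and 47 of all tested probe sets, against 0 and 1 without it, and 2 and 67 after quantile normalization. The fixed replicate block called 0 of all tested probe sets, as did the test without moderation. With arrays left out singly or as a pair of the same number (the latter added after the data were seen), the count ranged from 0 to 2. Ifit1 differed by -0.77 to -0.47, Ifit3 by -0.87 to -0.36 and Oasl2 by -0.69 to -0.38 as single arrays were left out, and each stayed lower under all alternatives run. Ifit2 differed by -0.33 to -0.08 and Oas1a by -0.35 to -0.06 in those cases. The count of members at an unadjusted p under 0.05, which was 2 with all arrays, ranged from 1 to 3 without single arrays. Of all tested probe sets 103 to 360 had such a p, in either direction, without single arrays. The count of members was 0 without both arrays of replicate 1 or of replicate 2, and 3 without both of replicate 3. It was 6 with the random block after quantile normalization. All tested probe sets with such a p numbered 76, 109, 263 and 2604 in these fits. Oas2 ranged from -0.37 and Oas3 from -0.12 as single arrays were left out, and Oas2 turned to 0.12 without fosB-null replicate 3 and 0.01 without wild-type replicate 2, and Oas3 to 0.0105 without wild-type replicate 2. The cause was not tested. All 8 members passed the filter on the dimmest 40% of probe sets.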
